A study of Mus musculus with 15 samples.

Results

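The IL-10 axis was described here by 6 genes, chosen by name from the 561 genes of the nanoString nCounter Mouse Immunology panel. They were Il10, which encodes the cytokine, Il10ra and Il10rb, which encode its receptor chains, and Socs1, Socs3 and Cish, which encode feedback inhibitors of cytokine signaling. All 6 were on the panel. In build GRCm38.p6 RefSeq places Il10 at chr1:131019845-131024970, Il10ra at chr9:45253837-45269149, Il10rb at chr16:91406157-91425834, Socs1 at chr16:10783808-10785536, Socs3 at chr11:117966079-117970336 and Cish at chr9:107296659-107302784. The assay hybridizes barcoded probe pairs to mRNA and counts the barcodes, with no amplification step. The cells were RAW 264.7 macrophages, an established mouse macrophage line, so all samples came from 1 line.

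All cells received lipopolysaccharide (LPS) together with extracellular vesicles (EVs) from mouse plasma for 24 hours. The donors were female C57BL/6J mice. In the sham EVs group the donors were not irradiated, and in the other groups plasma was taken 3 or 7 days after whole-body ionizing radiation (WBIR) at a dose of 2 or 9 Gy. There were therefore 5 groups, sham EVs, 2 Gy day 3 EVs, 2 Gy day 7 EVs, 9 Gy day 3 EVs and 9 Gy day 7 EVs, with 3 samples each and 15 in all. There was no group without LPS or without EVs, so every difference below is between cells that had both. Nothing in the labels says that the 3 samples of a group were separate cultures, so the p-values measure only the spread between these samples, which may be technical. Replicates 1 and 2 of 9 Gy day 3 EVs carry day 3 in their titles and day 7 in another label; they were placed by title. The labels and the study's methods also differ in the number of EVs given and in the lysis reagent.

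IL-10 is secreted by macrophages after Toll-like receptor stimulation and limits their output of inflammatory cytokines. It binds a receptor of IL-10RA, which gives specificity, and IL-10RB, which is shared with other cytokines. The receptor acts through the kinases JAK1 and TYK2 on the transcription factor STAT3. SOCS1, SOCS3 and CIS (encoded by Cish) are induced by STAT factors and dampen cytokine receptors in turn. SOCS1 is best known for restraining interferon signaling, SOCS3 for restraining IL-6 family receptors, and CIS for restraining receptors that use STAT5.

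A STAT-type element, TTCNNNGAA, is shown for the feedback genes because STAT factors are their known activators. RefSeq promoter windows of build GRCm38.p6, which run from 250 bases before to 50 bases after a start site, held 3 of the 6 genes: Socs1, Socs3 and Cish. The element reads the same on both strands. It was in 2 of these 3 windows and in 8.3% of the 32851 windows of the table. The stretches that hold it in the Cish and Socs3 windows are printed 5′ to 3′ on the gene's strand with the element in capitals and 5 flanking bases in lower case.
Cish, chr9:107296654-107296683, plus strand: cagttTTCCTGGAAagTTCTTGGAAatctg
Socs3, chr11:117969507-117969525, minus strand: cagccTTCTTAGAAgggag
In Cish the elements begin at positions 1 and 12 counted from the start site, so they lie in the first transcribed bases of that annotation. In Socs3 the element begins at position -154 from the start site of that window, which is 117969366, while the annotated gene extends upstream to 117970336 and so contains it. The Socs1 window did not hold these letters. A match is a description of the letters and not evidence of binding.

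Counts were scaled to the panel's 14 housekeeping genes, and these normalized counts are used unless raw counts are named. Total raw counts were 453178 to 837995 per sample outside 9 Gy day 3 EVs and 43176 to 87899 within it, so 1 raw count there is worth 3.30 to 5.93 normalized counts. The depth limits single values in that group, and the intervals given for raw counts (95%, exact Poisson) cover counting error only. The filter for testing was a mean of 20 raw counts or more over the 15 samples, which 269 genes passed. Il10ra, Il10rb and Socs3 were among them. Il10 (mean 17.3), Cish (15.9) and Socs1 (8.80) did not, and their tests come from the same model without that filter. Of the macrophage markers fixed for a check of the label, 7 of 9 were on the panel, and their summed raw counts were 12625 to 18223 with sham EVs. T and B cell markers, 10 genes that these cells are not known for, had a median of 11.5 raw counts with sham EVs and of 1 with 9 Gy day 3 EVs. The control probes that would give the assay's background were not used here.

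With housekeeping scaling, Il10 was lower with EVs from mice given 9 Gy. With sham EVs its normalized counts were 28.9, 15.4 and 15.1, 2 Gy day 3 EVs gave 25.6, 15.7 and 15.7 and 2 Gy day 7 EVs 18.5, 16.0 and 17.1. The 9 Gy day 3 samples stood at 11.9, 12.01 and 3.30, whereas 9 Gy day 7 EVs gave 2.46, 7.68 and 9.89. All 6 samples with 9 Gy EVs were below all 6 with 2 Gy EVs and below all 3 with sham EVs. How many other genes separate in this way is not given here. Without the filter, 30.8% of 561 genes were called lower between doses. In raw counts the 9 Gy day 3 samples stood at 2, 3 and 1, where a count of 2 has an interval of 0.242 to 7.22, and the 9 Gy day 7 samples at 5, 15 and 21 against 20 to 32 with sham EVs.

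Without the filter, the log2 fold change of Il10 against sham EVs was -1.52 (SE 0.38, edgeR adjusted p = 0.00429) for 9 Gy day 7 EVs and -1.21 (SE 0.67, edgeR adjusted p = 0.247) for 9 Gy day 3 EVs. Against 2 Gy EVs over both days it was -1.25 (SE 0.37, edgeR adjusted p = 0.0141). The fall was 2.87-fold at day 7, where 37.8% of all 561 genes were called lower, and 2.37-fold between doses, where 30.8% were. The values stayed below 0 under the 5 scalings of the samples, but the calls did not hold under all of them. Between doses the call held only with the housekeeping genes, all 14 or the 10 of higher counts. It was lost with TMM scaling (-0.79, edgeR adjusted p = 0.156), with median-of-ratios scaling (-0.81, edgeR adjusted p = 0.151), with total counts (-0.14, edgeR adjusted p = 0.797) and in DESeq2 (-0.81, DESeq2 adjusted p = 0.124). At day 7 it was lost with total counts (-0.46, edgeR adjusted p = 0.392) and in DESeq2 (-0.99, DESeq2 adjusted p = 0.0709). DESeq2 took its own median-of-ratios size factors, so the scaling changed there along with the test. Without replicate 3 of 9 Gy day 3 EVs the value between doses was -0.99 (edgeR adjusted p = 0.0765). In a bulk sample fewer cells that express a gene and less RNA per cell cannot be told apart.

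Other weakly counted genes were also lower at 9 Gy day 7. Of the 292 genes under the filter, 28.1% were called lower with 9 Gy day 7 EVs against sham EVs, with a median log2 fold change of -0.70 over all 292, and 13.4% were called lower with 9 Gy EVs against 2 Gy EVs. At 9 Gy day 3, where the counts were lowest, 2.05% were called lower, with a median of -0.36. The 5 B cell markers summed to 28.7 to 36.4 normalized counts with 9 Gy day 7 EVs and to 49.7 to 57.2 with sham EVs, although their raw sums overlapped (56 to 74 and 55 to 76). With 9 Gy day 3 EVs they summed to 32.0 to 59.3 normalized counts, from 8 to 11 raw counts, which overlapped with sham EVs. Per 100 raw counts of those markers, Il10 had 6.76, 26.8 and 32.8 counts with 9 Gy day 7 EVs and 58.2, 27.03 and 26.3 with sham EVs. On that scale the groups overlapped and replicate 1 of 9 Gy day 7 EVs was the low sample. The part of a fixed probe background in the fall of Il10 was not tested.

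The receptor chains were counted at similar depth, with mean raw counts of 101 each over the samples, and their ratio was higher with 9 Gy than with 2 Gy EVs over single samples. Il10ra had normalized counts of 55.1, 89.2 and 87.4 with sham EVs. Values of 64.1, 95.3 and 77.7 came from 2 Gy day 3 EVs and 76.9, 91.4 and 107 from 2 Gy day 7 EVs. With 9 Gy day 3 EVs it had 136, 112 and 79.3, whereas 9 Gy day 7 EVs gave 80.6, 78.9 and 73.9. The 9 Gy day 7 samples lay inside the range of sham EVs, and 2 of the 3 samples with 9 Gy day 3 EVs lay above it.

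Il10rb had normalized counts of 99.3, 92.3 and 124 with sham EVs. Values of 79.6, 77.6 and 102 came from 2 Gy day 3 EVs and 91.6, 105 and 95.2 from 2 Gy day 7 EVs. With 9 Gy day 3 EVs it had 29.6, 64.1 and 69.3, from raw counts of 5, 16 and 21, whereas 9 Gy day 7 EVs gave 53.1, 49.2 and 73.9. All 6 samples with 9 Gy EVs were below every other sample. How many other genes separate in this way is not given here, and 52% of the 269 genes tested were called lower between doses.

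Il10rb had log2 fold changes against sham EVs of -0.89 (SE 0.27, edgeR adjusted p = 0.0128) for 9 Gy day 3 EVs and -0.84 (SE 0.22, edgeR adjusted p = 0.00450) for 9 Gy day 7 EVs. Against 2 Gy EVs it was -0.67 (SE 0.17, edgeR adjusted p = 0.00349). Of all 269 genes tested, 41.3%, 49.1% and 52% were called lower in these comparisons. Il10ra had 0.46 (SE 0.25, edgeR adjusted p = 0.139), 0.01 (SE 0.22, edgeR adjusted p = 0.980) and 0.10 (SE 0.17, edgeR adjusted p = 0.626) in the same comparisons. Which chain was called depended on the scaling. With housekeeping scaling the median of all genes tested was itself at -0.46, -0.45 and -0.45. With TMM scaling that median was at 0.01, 0.03 and 0.02, Il10rb stood at -0.41, -0.36 and -0.20, none of them called, and Il10ra stood at 0.93 (edgeR adjusted p = 0.00689), 0.50 (edgeR adjusted p = 0.0586) and 0.57 (edgeR adjusted p = 0.00717). With scaling to total counts the median was at 0.56, 0.65 and 0.69 and Il10rb turned to 0.12, 0.24 and 0.45, the last called higher (edgeR adjusted p = 0.0169), while Il10ra was called higher in all 3 comparisons, at 1.499 (edgeR adjusted p = 0.000375), 1.13 (edgeR adjusted p = 0.000769) and 1.24 (edgeR adjusted p = 2.27e-05). Genes of very high counts weigh most in a total. Ccl3 and Ccl5, named here for their high counts, had mean normalized counts of 116591 and 115415 with sham EVs. With 9 Gy day 7 EVs these were 53786 and 27420. A total that loses such counts raises the scaled values of the other genes, and the size of this effect was not tested. Without the samples of conflicting day labels, which leaves 1 sample of 9 Gy day 3 EVs that is assumed to vary like the other groups, Il10rb at day 3 stood at -0.60 (edgeR adjusted p = 0.195).

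**Figure D1:**
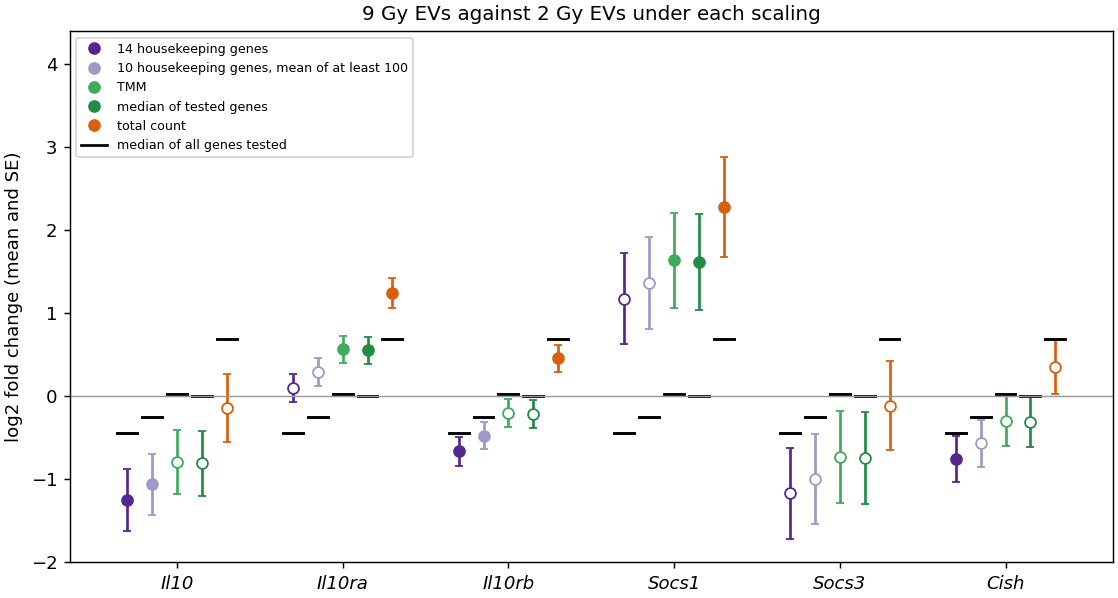
The log2 fold change of 9 Gy EVs over 2 Gy EVs (vertical axis, both days, with SE) of each of the 6 genes is plotted for 5 ways of scaling the samples, filled where the adjusted p was under 0.05, with a black bar at the median of all genes tested. Il10ra lay above that median and Il10rb below it in all 5, while the sign of Il10rb and of Cish turned with total counts.

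The ratio of the chains within a sample does not depend on the scaling. The log2 ratio of raw Il10ra to Il10rb counts was -0.85, -0.05 and -0.51 with sham EVs. It was from -0.40 to 0.30 with 2 Gy EVs (median -0.23) and from 0.00 to 2.20 with 9 Gy EVs (median 0.64), so the groups overlapped. Its mean was 0.75 ± 0.78 (SD, n = 6) with 9 Gy EVs and -0.12 ± 0.28 (SD, n = 6) with 2 Gy EVs, a difference of 0.86 (exact permutation test, two-sided, p = 0.0108, adjusted p = 0.0162 over 3 pairs of genes). The smallest p that 6 against 6 samples allow is 0.00216. This test takes the day 3 and day 7 samples of a dose as independent, although samples of the same number deviated together between the days. Some samples of different numbers did so too, so the number was not shown to pair them. With the 2 days of a number averaged, a choice made after seeing the data, the 3 values with 9 Gy EVs (0.10 to 1.40) lay above the 3 with 2 Gy EVs (-0.28 to 0.05). The exact permutation test then gave p = 0.1 (adjusted p = 0.150), and 0.1 is the smallest p that 3 against 3 allow. Replicate 1 of 9 Gy day 3 EVs was the highest sample, with 23 and 5 raw counts. Without the samples of conflicting day labels the difference was 0.49 (exact permutation test, adjusted p = 0.0571).

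**Figure D2:**
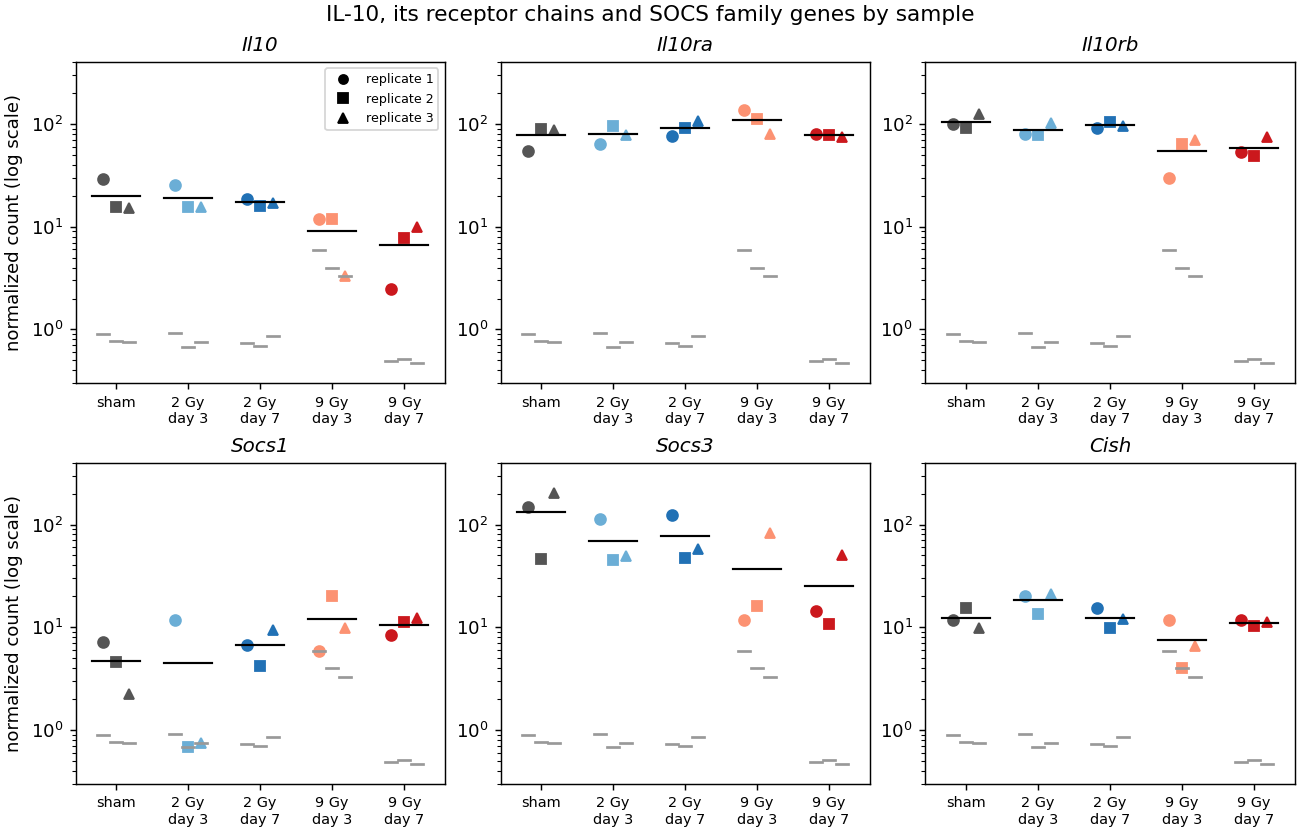
Normalized counts (log axis) of the 6 genes are plotted for each sample in the 5 EV groups, with a black bar at the mean of 3 samples and a grey tick at the value that 1 raw count has in that sample. On this housekeeping scale Il10 and Il10rb were lower in every sample with 9 Gy EVs (Il10rb turned with total counts), Socs3 was lower in 4 of the 6, and many values of Il10, Socs1 and Cish at 9 Gy day 3 lie within a few ticks of 1 count. How many other genes separate in this way is not given here.

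Socs3 had the largest fall of the 6 genes, at 9 Gy day 7, and varied widely within groups, with a coefficient of variation from 55.0% to 108%. With sham EVs its normalized counts were 148, 46.1 and 205, 2 Gy day 3 EVs gave 114, 45.6 and 49.3 and 2 Gy day 7 EVs 125, 46.7 and 58.3. The 9 Gy day 3 samples stood at 11.9, 16.0 and 82.6, from raw counts of 2, 4 and 25, whereas 9 Gy day 7 EVs gave 14.3, 10.8 and 50.4, from raw counts of 29, 21 and 107. In both 9 Gy groups replicates 1 and 2 were below all samples with sham or 2 Gy EVs, while replicate 3 lay inside their range.

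Its log2 fold change against sham EVs was -2.39 (SE 0.69, edgeR adjusted p = 0.00866) for 9 Gy day 7 EVs, a fall of 5.24-fold, and -1.69 (SE 0.84, edgeR adjusted p = 0.105) for 9 Gy day 3 EVs. Against 2 Gy EVs it was -1.17 (SE 0.55, edgeR adjusted p = 0.0715). Without replicate 3 of both 9 Gy groups, a choice made after seeing the data, the values at day 3 and between doses were -3.21 (edgeR adjusted p = 0.0190) and -2.43 (edgeR adjusted p = 0.00325). Between doses, leaving out replicate 3 of 9 Gy day 3 EVs alone gave -1.93 (edgeR adjusted p = 0.0254) and of 9 Gy day 7 EVs alone -1.67 (edgeR adjusted p = 0.0120). At day 3, leaving out replicate 2 of sham EVs gave -2.10 (edgeR adjusted p = 0.0416). Without the samples of conflicting day labels only replicate 3 of 9 Gy day 3 EVs, the high one, remains, and the value was -0.69. The sign was negative under all 5 scalings in these 3 comparisons, although with total counts the fall at day 7 was not called (-1.39, edgeR adjusted p = 0.0762).

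The genes whose log2 normalized counts followed Socs3 most closely over the 15 samples were Cd14, the LPS co-receptor (Pearson r 0.970), Msr1, a scavenger receptor (r 0.967), and Pou2f2, a transcription factor (r 0.938). Cd14 stood at 3006, 1875 and 3932 normalized counts with sham EVs and at 958, 933 and 1594 with 9 Gy day 7 EVs. Replicate 3 was the highest of the 9 Gy day 7 samples and replicate 2 the lowest of the sham samples, as for Socs3. These points share the groups and the scaling, so r is a description. For Il10rb the closest were Zbtb7b (r 0.897), Cd274 (r 0.886), which encodes PD-L1, and Ifngr2 (r 0.885), a chain of the interferon gamma receptor. For Il10 they were Gpr44 (r 0.880), Jak1 (r 0.876) and Fcgr3 (r 0.828), and for Il10ra Irak4 (r 0.734), Nfkb1 (r 0.708) and the housekeeping gene Oaz1 (r 0.703). For Socs1 they were Nfil3 (r 0.775), Traf6 (r 0.626) and Smad5 (r 0.529), and for Cish Bcl2 (r 0.792), Xcl1 (r 0.776) and Ptk2 (r 0.773).

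Socs1 had its highest raw counts with 9 Gy day 7 EVs. Its raw counts were low throughout, 8, 6 and 3 in the sham group. For 2 Gy they were 13, 1 and 1 at day 3 and 9, 6 and 11 at day 7, and for 9 Gy they were 1, 5 and 3 at day 3 and 17, 22 and 26 at day 7. In raw counts all 3 samples with 9 Gy day 7 EVs were above all others, but this group also had the highest housekeeping counts, which favors it in raw counts. In normalized counts (8.36, 11.3 and 12.2) the 3 samples were above all with sham EVs (7.22, 4.61 and 2.26). On that scale they overlapped with 2 Gy EVs, whose highest sample, replicate 1 of day 3, stood at 11.9. Replicate 2 of 9 Gy day 3 EVs was above all 3. Per 100 raw counts of the B cell markers, Socs1 stood at 22.97, 39.3 and 40.6 with 9 Gy day 7 EVs and at 14.5, 8.11 and 3.95 with sham EVs, with no overlap. Without the filter, its log2 fold change at day 7 was 1.21 (SE 0.55, edgeR adjusted p = 0.0853), and it was 1.18 (SE 0.55, edgeR adjusted p = 0.103) between doses, neither called. These calls depended on the settings. Without replicate 1 of 2 Gy day 3 EVs, which had 13 raw counts, the value between doses was 2.32 (edgeR adjusted p = 0.000920). With only the groups compared in the fit, day 7 was called (1.21, edgeR adjusted p = 0.0305). DESeq2, with its own median-of-ratios scaling, called both, at 1.77 (DESeq2 adjusted p = 0.0431) for day 7 and 1.57 (DESeq2 adjusted p = 0.0133) between doses. With TMM scaling these were 1.68 (edgeR adjusted p = 0.0279) and 1.64 (edgeR adjusted p = 0.0406), both called, and with total counts 2.28 (edgeR adjusted p = 0.00248) and 2.28 (edgeR adjusted p = 0.00446). Its raw counts lay within the range of the T and B cell markers, 1 to 124 with 9 Gy day 7 EVs. Of those markers Cd8a had by far the highest median there (94), followed by Ms4a1 (28). The median over the 10 markers was 11.5, below the Socs1 counts of that group.

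The log2 ratio of raw Socs1 to Socs3 counts had a higher mean with 9 Gy EVs, but its size is uncertain. Socs1 was at 1 count, the lowest value in the data, in replicates 2 and 3 of 2 Gy day 3 EVs and replicate 1 of 9 Gy day 3 EVs, and was not shown to be above a probe background. The ratio was -4.36, -3.32 and -6.50 with sham EVs, from -6.07 to -2.63 with 2 Gy EVs (median -3.86) and from -3.06 to 0.32 with 9 Gy EVs (median -0.89). All but 1 of the 9 Gy samples, replicate 3 of 9 Gy day 3 EVs, lay above all samples with 2 Gy EVs. The means were -1.08 ± 1.28 (SD, n = 6) with 9 Gy EVs and -4.29 ± 1.46 (SD, n = 6) with 2 Gy EVs, a difference of 3.21 (exact permutation test, two-sided, p = 0.00433, adjusted p = 0.0130 over 3 pairs). With the 2 days of a number averaged, the 3 values with 9 Gy EVs (-2.55 to 0.19) lay above the 3 with 2 Gy EVs (-4.77 to -3.75), with p = 0.1 (adjusted p = 0.150) in the exact permutation test. With 10 added to every count the difference was 1.98 (exact permutation test, adjusted p = 0.00649). With day 7 alone, where Socs1 had 6 or more counts, it was 2.53 (exact permutation test, adjusted p = 0.150), and without the samples of conflicting day labels 2.84 (exact permutation test, adjusted p = 0.0571).

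**Figure D3:**
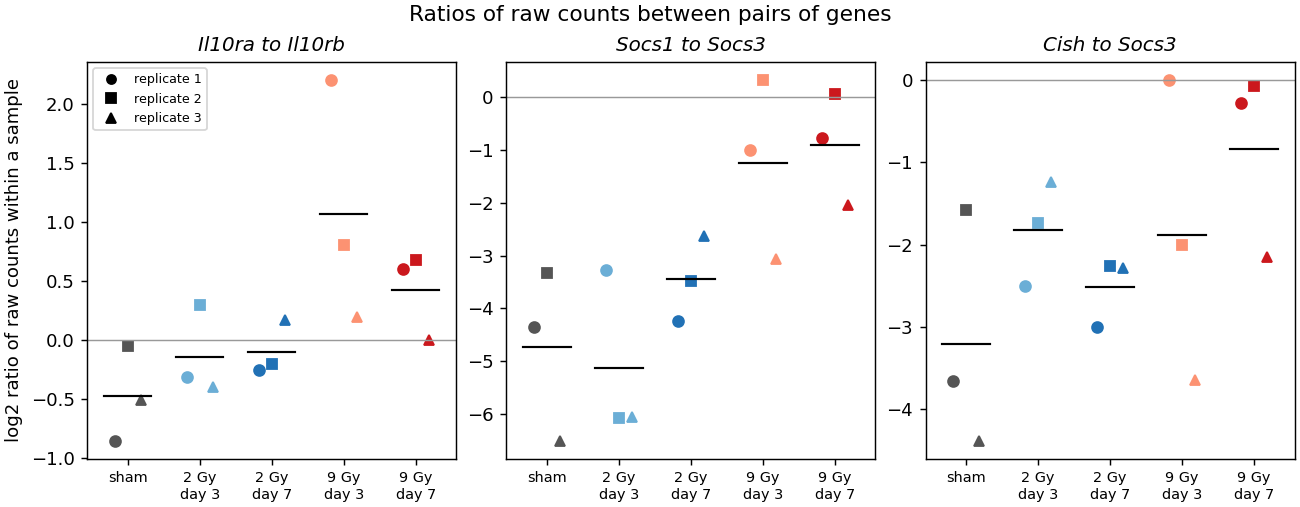
The log2 ratio of raw counts within a sample (vertical axis) is plotted for 3 pairs of genes in the 5 EV groups, with a black bar at the mean of 3 samples. The ratio of Socs1 to Socs3 had a mean of -4.29 with 2 Gy EVs and -1.08 with 9 Gy EVs, and the ratio of Il10ra to Il10rb had -0.12 and 0.75, while the ratio of Cish to Socs3 differed by less than its spread.

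Cish showed no change that held across settings. Its raw counts were 13, 20 and 13 in the sham group. For 2 Gy they were 22, 20 and 28 at day 3 and 21, 14 and 14 at day 7, and for 9 Gy they were 2, 1 and 2 at day 3 and 24, 20 and 24 at day 7. In normalized counts the 9 Gy day 7 samples (11.8, 10.2 and 11.3) lay inside the range of sham EVs (11.7, 15.4 and 9.79), and of the 9 Gy day 3 samples (11.9, 4.004 and 6.60) replicates 2 and 3 were below it. The log2 fold change between doses was -0.76 (SE 0.28, edgeR adjusted p = 0.0484, without the filter), and against sham EVs it was -0.82 (SE 0.52, edgeR adjusted p = 0.394) at day 3 and -0.15 (SE 0.25, edgeR adjusted p = 0.667) at day 7. The call between doses was lost under TMM scaling (-0.30, edgeR adjusted p = 0.625) and when any 1 of 9 of the 12 samples was left out (edgeR adjusted p from 0.0502 to 0.184). The sign turned with total counts (0.35, with 0.18 at 9 Gy day 3 and 0.95 at 9 Gy day 7, the last called higher, edgeR adjusted p = 0.00923), and with only the day 7 groups compared the value was -0.16 (edgeR adjusted p = 0.661). The log2 ratio of raw Cish to Socs3 counts was -1.36 ± 1.48 (SD, n = 6) with 9 Gy EVs and -2.17 ± 0.61 (SD, n = 6) with 2 Gy EVs, a difference of 0.82 (exact permutation test, two-sided, p = 0.240, adjusted p = 0.240 over 3 pairs).

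Counted over the genes, with housekeeping scaling, 1 of the 3 tested (Il10rb) was called at 9 Gy day 3 against sham EVs, and it was lower; 52.4% of all 269 genes tested were called there and 41.3% were lower. At 9 Gy day 7, 2 of 3 were called (Il10rb and Socs3), both lower, where 61% of all genes were called and 49.1% were lower. Between doses 1 of 3 was called (Il10rb), lower, where 67.7% were called and 52% were lower. Of the 3 genes under the filter, 0 were called at 9 Gy day 3 in the model without it, and 0 had an unadjusted p under 0.05, where 22.8% of 561 genes were called and 18.7% were lower. At 9 Gy day 7, 1 of 3 was called (Il10), lower, where 43.3% were called and 37.8% were lower, and between doses 2 of 3 were called (Il10 and Cish), both lower, where 38% were called and 30.8% were lower. With 3 genes on each side of the filter, these counts do not set the genes apart from the panel.

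EVs from mice given 2 Gy left the 6 genes without a called change. At 2 Gy day 3 against sham EVs, 0 genes were called by edgeR with or without the filter (0%), with 7 of 269 and 18 of 561 at an unadjusted p under 0.05. DESeq2 also called 0 of 269. Of the 6 genes, Cish was at an unadjusted p under 0.05. Its value was 0.55 (SE 0.25, edgeR adjusted p = 0.994), with 2 of 3 samples above all sham samples. At 2 Gy day 7 none of the 6 was called, 0 of 269 genes were called (0%, 1 at an unadjusted p under 0.05) and 0.178% of 561 without the filter. The log2 fold changes at the 2 days were -0.95 (SE 0.65) and -0.79 (SE 0.65) for Socs3, -0.28 (SE 0.22) and -0.11 (SE 0.22) for Il10rb, 0.03 (SE 0.22) and 0.24 (SE 0.22) for Il10ra, and -0.06 (SE 0.34) and -0.17 (SE 0.35) for Il10. The SE of Socs3 leaves room for a change of the size seen with 9 Gy EVs, so these samples do not show that 2 Gy EVs left it unchanged. All comparisons with sham EVs share the same 3 sham samples.

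Day 7 against day 3 within a dose gave 0 called genes at either dose by edgeR, with or without the filter (0%), with 6 of 269 at 9 Gy and 4 of 269 at 2 Gy at an unadjusted p under 0.05. DESeq2 also called 0 at either dose. Of the 6 genes, 0 at 9 Gy and 1 at 2 Gy had an unadjusted p under 0.05, again Cish (-0.54, SE 0.25, edgeR adjusted p = 0.994). At 9 Gy the values were -0.70 (SE 0.91) for Socs3, -0.46 (SE 0.25) for Il10ra, 0.05 (SE 0.27) for Il10rb and -0.31 (SE 0.78) for Il10. The difference between the doses in that step was tested as an interaction and was not called for any of the 6 genes (edgeR adjusted p 0.993 for each).

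**Figure D4:**
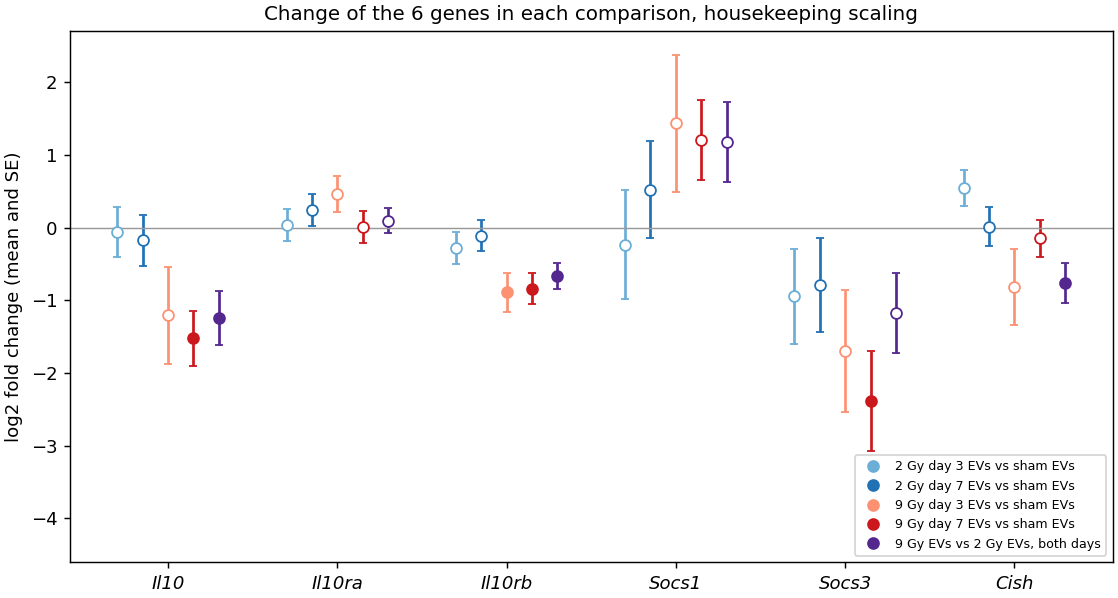
The log2 fold change (vertical axis, with SE) of each of the 6 genes is plotted for the 4 EV groups against sham EVs and for 9 Gy against 2 Gy EVs, with housekeeping scaling and filled points where the adjusted p was under 0.05. Filled points stand below 0 for Il10, Il10rb, Socs3 and Cish, and with total counts the 3 points of Il10rb that involve 9 Gy EVs would lie above 0 (0.12, 0.24 and 0.45), as would Cish at 9 Gy day 3 (0.18), 9 Gy day 7 (0.95) and between doses (0.35).

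Genes around the axis were taken from fixed lists and compared between 9 Gy and 2 Gy EVs, with housekeeping scaling and beside a median of -0.45 over all genes tested. Changes of these genes are log2 fold changes, and "rose" and "fell" are calls with that scaling. Of all 269 genes tested, 42 were called higher and 140 lower (52%) with it, 90 higher and 80 lower with TMM, and 168 higher and 36 lower with total counts, so the lists are read against those shares. Among receptor kinases and STAT factors 10 of 11 were tested, 1 rose and 6 fell, with a median of -0.37. The share lower was near the 52% of the panel. The counts turned with the scaling, as those of all genes did: 2 were higher and 1 lower with TMM, and 8 were higher and 0 lower with total counts. Jak1, a kinase of the IL-10 receptor, fell by 0.54 (SE 0.12, edgeR adjusted p = 0.00102) and Stat3, its main transcription factor, fell by 0.33 (SE 0.12, edgeR adjusted p = 0.0220). Tyk2, the other kinase of the receptor, rose by 0.75 (SE 0.17, edgeR adjusted p = 0.00147). Stat5a fell by 0.65 (SE 0.24, edgeR adjusted p = 0.0265). Tyk2 was called higher under each of the 5 scalings. With TMM scaling Jak1 (-0.09), Stat3 (0.13) and Stat5a (-0.17) were not called, and with total counts Jak1 (0.59, edgeR adjusted p = 0.000819) and Stat3 (0.80, edgeR adjusted p = 8.42e-05) were called higher and Stat5a stood at 0.52 (edgeR adjusted p = 0.0715). Against sham EVs the same list had 1 higher and 3 lower at day 3 and 1 higher and 5 lower at day 7, where all 269 genes had 30 higher and 111 lower and 32 higher and 132 lower. With TMM the list had 2 higher and 1 lower at each day (all genes 59 and 60 at day 3, 75 and 76 at day 7). With total counts it had 3 and 5 higher and 0 lower (all genes 121 higher and 33 lower, and 143 higher and 31 lower).

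Among regulators of Il10 transcription 5 of 13 were tested, 0 rose and 2 fell, whereas 3 were higher and 0 lower with TMM and 4 were higher and 0 lower with total counts (all genes 42 and 140, 90 and 80, and 168 and 36 of 269). Irf8, an interferon regulatory factor, fell by 0.84 (SE 0.20, edgeR adjusted p = 0.00181) and Batf, an AP-1 family factor, fell by 0.43 (SE 0.11, edgeR adjusted p = 0.00399). Neither was called with TMM (-0.38 and 0.03), and with total counts Irf8 stood at 0.27 and Batf was called higher (0.70, edgeR adjusted p = 0.000120). The median of the list was -0.02, and the other 8 genes were under the filter, with raw counts from 1 to 20. Cytokines of the IL-10 family were on the panel as 4 of 7 genes (Il19, Il20, Il22 and Il22ra2, a decoy receptor among them), all under the filter with raw counts from 1 to 15.

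Genes known to be raised by IL-10 in macrophages were tested as 9 of 12, with 1 higher and 6 lower and a median of -0.98, where 140 of all 269 genes (52%) were lower. Tnfrsf1b, a TNF receptor, fell by 2.42 (SE 0.28, edgeR adjusted p = 3.85e-06), Il1rn, the IL-1 receptor antagonist, fell by 2.30 (SE 0.41, edgeR adjusted p = 0.000250), Cebpb, a transcription factor, fell by 1.92 (SE 0.25, edgeR adjusted p = 1.49e-05) and Fcgr1, an Fc receptor, fell by 1.45 (SE 0.30, edgeR adjusted p = 0.000888). These 4 were called lower with TMM too and stood below 0 with total counts, from -1.34 to -0.36, where Fcgr1 was not called (edgeR adjusted p = 0.291). The other 2 that fell, Cd14 and Msr1, were not called with TMM (-0.53 and -0.43) and stood above 0 with total counts (0.12 and 0.22). The gene that rose was Nfil3, a transcription factor (0.52, SE 0.13, edgeR adjusted p = 0.00276), named after its value was seen. LPS itself raises several of these genes, so the list is not a measure of IL-10 alone.

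LPS-induced genes known to be lowered by IL-10 were tested as 18 of 21, with 2 higher and 13 lower and a median of -2.02, where 42 of all 269 genes were higher and 140 lower (52%). Il6 fell by 6.07 (SE 0.26, edgeR adjusted p = 2.73e-10), Il23a fell by 5.01 (SE 0.31, edgeR adjusted p = 1.09e-08), Il1a fell by 4.65 (SE 0.48, edgeR adjusted p = 1.26e-06) and Il1b fell by 4.52 (SE 0.60, edgeR adjusted p = 1.51e-05), all cytokines of the inflammatory response. They were below -3 with total counts as well, from -4.96 to -3.48. The 2 that rose were Ifnb1, interferon beta (3.86, SE 0.46, edgeR adjusted p = 5.65e-06), and Cxcl10, an interferon-induced chemokine (1.82, SE 0.29, edgeR adjusted p = 8.08e-05), named after their values were seen. So with housekeeping scaling more genes were lower than higher both in the list that IL-10 lowers and in the list that it raises. With TMM the counts were 2 higher and 12 lower for the first and 2 higher and 4 lower for the second (all genes 90 and 80). With total counts the first had 5 higher and 11 lower, and the second 3 higher and 3 lower with a median of 0.12 (all genes 168 and 36).

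Receptors that SOCS1, SOCS3 or CIS act on were tested as 11 of 17, with 1 higher and 6 lower and a median of -0.66, a share lower near the panel's 52%. With TMM 3 were higher and 3 lower (all genes 90 and 80 of 269), and with total counts 6 were higher and 1 lower (all genes 168 and 36), with a median of 0.49. Il2rg, the common gamma chain, fell by 1.92 (SE 0.11, edgeR adjusted p = 4.99e-09), Ifngr2 fell by 1.37 (SE 0.16, edgeR adjusted p = 4.65e-06) and Il2rb, an IL-2 receptor chain, fell by 0.96 (SE 0.27, edgeR adjusted p = 0.00690), while Csf1r, the receptor of the macrophage growth factor CSF-1, rose by 1.77 (SE 0.17, edgeR adjusted p = 6.84e-07). Other inhibitors of cytokine and Toll-like receptor signaling were tested as 8 of 9, with 0 higher and 4 lower and a median of -0.35, again near the panel's 52% lower. With TMM 3 were higher and 1 lower (median 0.11), and with total counts 7 were higher and 1 lower (median 0.79), beside the same counts over all genes. Tollip fell by 1.81 (SE 0.11, edgeR adjusted p = 1.15e-08), Irak3 fell by 0.75 (SE 0.13, edgeR adjusted p = 0.000146), Tnfaip3, which encodes A20, fell by 0.66 (SE 0.15, edgeR adjusted p = 0.00118) and Nfkbia, which encodes the inhibitor of NF-κB, fell by 0.56 (SE 0.10, edgeR adjusted p = 0.000307). With TMM Irak3 (-0.29), Tnfaip3 (-0.21), Nfkbia (-0.10) and Il2rb (-0.49) were not called. Tollip (-1.35), Il2rg (-1.46) and Ifngr2 (-0.91) were still called lower with TMM, and Csf1r (2.23) higher. With total counts Tollip stayed below 0 (-0.69), and Irak3 (0.37), Tnfaip3 (0.47) and Nfkbia (0.58) were called higher. In that scaling Il2rg was still called lower (-0.80), Ifngr2 stayed below 0 but was not called (-0.26, edgeR adjusted p = 0.114), and Il2rb stood above 0 (0.17).

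**Figure D5:**
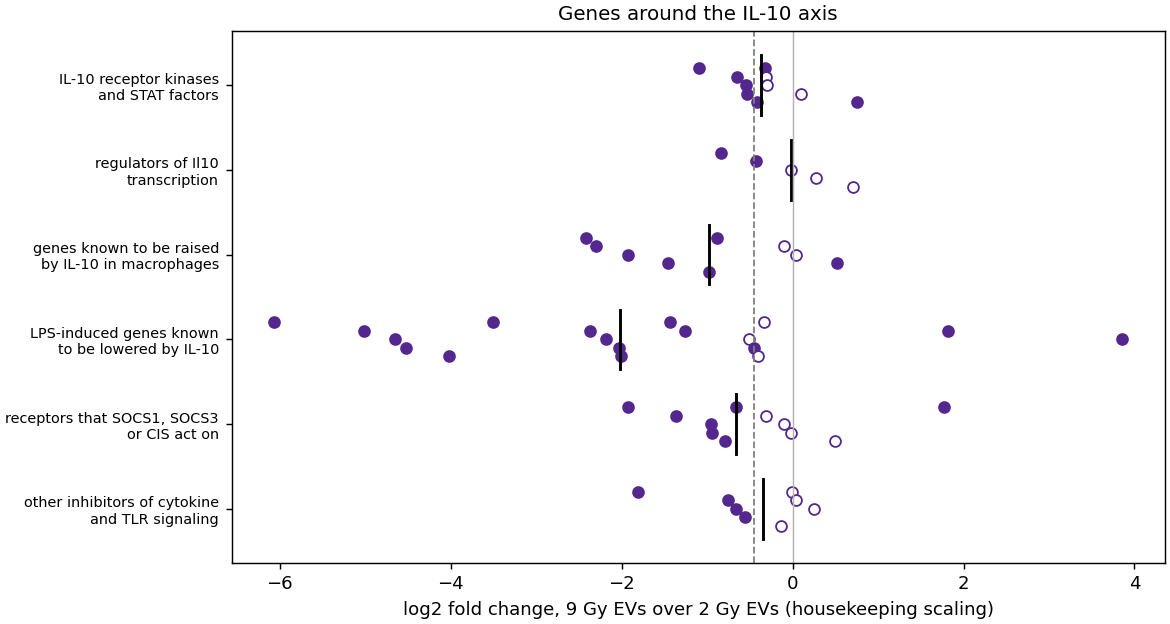
Each point is 1 gene of the 6 lists around the IL-10 axis, placed by its log2 fold change of 9 Gy EVs over 2 Gy EVs (horizontal axis, housekeeping scaling) and filled where the adjusted p was under 0.05, with a black bar at the list's median and a dashed line at the median of all genes tested (-0.45). The LPS-induced genes had the lowest median (-2.02), and scaling to total counts moves the points to the right, so that the medians of the other 5 lists lie above 0.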

How the data were processed

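The authors deposited raw nCounter counts of 561 genes in 15 samples. Per the study's methods they normalized them in nSolver, whose settings are not given in the sources used here. The lowest count was 1, and no background was subtracted. Samples were grouped by title.

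Each sample was scaled by the geometric mean of its 14 housekeeping genes. The 269 genes whose mean reached 20 counts entered 1 edgeR quasi-likelihood fit of all 5 groups (edgeR 4.0.16, limma 3.58.1, R 4.3.3; prior count 0.125; Benjamini-Hochberg adjustment, threshold 0.05). Members under the filter were read from the same fit of all 561 genes. Ratios of raw counts were compared by exact permutation. Comparisons between doses took the 2 days as independent. The scripts were tested on simulated data. Alternatives covered scaling, filter, low counts, prior count, groups in the fit, day labels, single samples and DESeq2 1.42.0. DESeq2 used its own median-of-ratios size factors and not the housekeeping genes. Same-numbered samples deviated together in every pair between the 2 Gy groups (r 0.365 to 0.779) and between the 9 Gy groups (0.330 to 0.717), and not in every pair elsewhere. Samples of different numbers had r from -0.684 to 0.611 between the 2 Gy groups and from -0.669 to 0.421 between the 9 Gy groups. Some of these exceeded same-numbered pairs, so these values do not show that the number pairs samples. The labels do not say what a number shares.

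The genes named were the 6 members in every comparison and, per list, up to 4 of the largest called changes between doses, with Stat3 and Jak1. One gene that this rule names is not reported here. The members and lists were chosen with earlier results of these data known.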

Additional observations from a re-analysis of the deposited data

How the results depend on the processing

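Of the members tested, the count called at 9 Gy day 7 (2) was 1 under TMM, median and total-count scaling and with a mean of at least 100. At 9 Gy day 3 (1) it was 2 with the 10 housekeeping genes of a mean of at least 100, 0 with counts under 20 set to 20, 0 with the samples of conflicting day labels placed at day 7 or left out (either leaves 1 sample of 9 Gy day 3 EVs, assumed to vary like the other groups), and 2 without replicate 3 of both 9 Gy groups; leaving out single samples gave 1 to 2, with 2 without 9 Gy day 3 EVs replicate 3 or sham EVs replicate 2. Between doses (1) it was 2 with total counts, 3 of 6 without the filter, 0 with counts under 20 set to 20, 2 with the replicate block (Socs3 at -1.30, edgeR adjusted p = 0.0197, although same-numbered samples correlated by only -0.15 to 0.27 between the doses), and 2 without replicate 3 of both 9 Gy groups; single samples gave 1 to 2, with 2 without replicate 3 of 9 Gy day 3 or day 7 EVs. In the comparisons between days, where the numbers may pair the samples, the replicate block left 0 called. For the members past the filter, the counts of 0 for 2 Gy EVs and between days stayed 0 in every alternative run. The genes under it were not in these counts when counts under 20 were set to 20. With that floor Il10 (-3.05), Socs1 (-2.89) and Cish (-2.89) all passed for day 7 against day 3 at 9 Gy.

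With total counts Il10rb reversed to 0.12 (day 3), 0.24 (day 7) and 0.45 (between doses), and Cish to 0.18 (day 3), 0.95 (day 7, called higher, edgeR adjusted p = 0.00923) and 0.35 (between doses). Setting counts under 20 to 20, which by construction gives a higher scaled floor to samples of lower housekeeping counts, reversed Il10 to 2.10 (day 3) and 0.69 (between doses), Cish to 2.37, 0.87 and, for day 7 against day 3 at 9 Gy, -2.89, and Socs1 to -0.53 (day 7). DESeq2, with its own median-of-ratios scaling, called Il10ra higher (0.94, 0.50 and 0.55, DESeq2 adjusted p = 0.00161, 0.0405 and 0.00321) and not Il10rb.

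The ratio of Il10ra to Il10rb differed by 0.49 without the samples of conflicting labels (adjusted p = 0.0571, exact permutation) and 0.52 with day 7 alone (0.200), and that of Socs1 to Socs3 by 2.84 (0.0571) and 2.53 (0.150); with day 7 alone, 3 against 3 samples cannot pass the exact test. Nor can they with the 2 days of a number averaged, added after seeing the data, where the differences were 0.86 and 3.21 (adjusted p = 0.150 each, exact permutation). The ratio of Cish to Socs3 differed by 1.07 with 10 added to every count (adjusted p = 0.0281, exact permutation) and by 0.54 to 1.27 without single samples, passing without 9 Gy day 3 EVs replicate 3. Other causes were not tested.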
